A study of Mus musculus with 17 samples.

Results

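A set of 10 nucleic acid sensing genes was followed in conventional dendritic cells (cDCs) of the mouse. They are Rigi, Ifih1 and Dhx58, the RIG-I-like RNA helicases, their adaptor Mavs, the DNA sensor Cgas and its adaptor Sting1, the Z-form nucleic acid sensor Zbp1, the DNA sensor Aim2, the exonuclease Trex1 and the dNTP hydrolase Samhd1. They were chosen as a list of cytosolic sensors and their closest regulators, matched by gene symbol, and 9 of the 10 were among the 31091 gene identifiers in the count table. Trex1 was not analysed here. On GRCm39 (GENCODE M39) Trex1 lies at chr9:108887001-108888802, and all 1147 of its exon bases are also exon bases of Atrip on the same strand.

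Splenic CD11c+ cells came from 8-week-old female C57BL/6JRj mice that carried B16-FLT3L tumors to expand their cDCs, with the spleens of more than 1 mouse pooled. They were cultured with GM-CSF for 6 h together with medium of the lung carcinoma line TC-1 and then sorted into cDC1s and cDC2s. The medium came from wild-type TC-1 cells (WT), from a TC-1 clone that dies by apoptosis through cumate-induced BimS (BimS), or from a TC-1 clone that dies by necroptosis through a cumate-induced self-oligomerizing RIPK3 (RIPK3). All TC-1 cells had received cumate, and the medium was not centrifuged, so it held dead cells and debris as well as soluble material. Each group had 3 samples except cDC2s in RIPK3 medium, which had 2, making 17 samples in 6 groups. Each death mode rests on 1 clone, and nothing in the labels says that the replicates came from separate pools of mice, so p-values measure the spread between these samples.

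RIG-I (Rigi) and MDA5 (Ifih1) bind viral or other abnormal RNA in the cytosol and signal through MAVS on mitochondria to the kinase TBK1 and the factors IRF3 and IRF7, which switch on type I interferon. LGP2 (Dhx58) binds RNA as they do but has no signalling domain and tunes their activity. cGAS makes the messenger cGAMP when it meets DNA in the cytosol, and STING (Sting1) receives cGAMP and also activates TBK1. AIM2 instead assembles an inflammasome on DNA, ZBP1 recruits RIPK3 and can start necroptosis, and SAMHD1 and TREX1 limit the pool of stimulatory nucleic acid. Several of these genes are themselves interferon-stimulated, so a sensor's transcript level is commonly read beside that of other interferon-stimulated genes.

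Interferon acts on many such genes through the interferon-stimulated response element (ISRE), searched here as GAAANNGAAA on either strand from 250 bases before to 50 bases after the start of the canonical transcript. It was present at 4 of the 9 measured genes (44.4%) and at 735 of 18999 tested genes with such a window (3.87%). The stretches that hold it are shown because these 4 genes include the ones with the largest falls described below. All lie on the minus strand of GRCm39 and are written 5′ to 3′ along the transcribed strand, with the ISRE letters in capitals.
Rigi: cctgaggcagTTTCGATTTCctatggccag
Ifih1: gaagagaatcGAAACAGAAAccgatctgtg
Dhx58: cctccccttgTTTCAGTTTCatttctagag
Zbp1: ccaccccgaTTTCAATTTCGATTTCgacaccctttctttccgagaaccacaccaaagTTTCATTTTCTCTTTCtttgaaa

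The Rigi stretch is chr4:40239804-40239833, and its match covers bases 12 to 21 of the transcript, in the untranslated part of exon 1. The Ifih1 stretch is chr2:62476548-62476577, with the match at bases 41 to 50, also in the untranslated part of exon 1. The Dhx58 stretch, chr11:100595082-100595111, holds a match that spans the transcript start. The Zbp1 stretch, chr2:173060745-173060824, lies wholly upstream, from base -100 to base -21, and holds 4 matches that overlap in pairs. Only 5 of the 18999 windows (0.0263%) held 4 or more. The GAS letters, TTCNNNGAA, were found upstream of Sting1, Zbp1 and Samhd1, against 7.56% of all windows, and the kappaB letters GGGANTTTCC were found at none of the 9 genes, against 0.458% of all windows. A match of letters is a description and does not show binding.

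The libraries held 16095159 to 21645289 reads on genes. The cDC1 markers (Clec9a, Xcr1 and 6 others) summed to 1397 to 1725 CPM (read counts scaled to library size) in the cDC1 samples and to 98.8 to 132 CPM in the cDC2 samples, and the cDC2 markers (Sirpa, Cd209a and 4 others) summed to 2.51 to 4.03 CPM in cDC1s and 271 to 363 CPM in cDC2s, so the sorted types matched their labels. Marker sums moved with the medium. The cDC1 markers in cDC1s summed to 1550 to 1725 CPM in WT, 1440 to 1594 in BimS and 1397 to 1470 in RIPK3 medium, and the cDC2 markers in cDC2s to 318 to 363, 298 to 326 and 271 to 307 CPM. The cDC1 markers were mixed in cDC1s, where Xcr1 (log2 0.44 with BimS and 0.57 with RIPK3 medium) and Clec9a (0.26 and 0.24) were called higher than in WT medium and Irf8 (-0.75 and -0.82), Itgae (-0.45 and -0.84) and Wdfy4 (-0.18 and -0.41) lower. Of the 6 cDC2 markers in cDC2s, those called were lower, Irf4 with both media (-1.16 and -1.52, adjusted p = 8.71e-07 and 2.42e-07) and Clec10a (-0.98, adjusted p = 5.58e-04) and Cd209a (-0.50, adjusted p = 0.0199) with RIPK3 medium. The plasmacytoid dendritic cell list (6 genes, 2 of them above 1 CPM in each cDC2 group, with Klk1 at 0 in WT and BimS medium) summed in cDC2s to 192 to 217 CPM in WT, 188 to 202 in BimS and 174 to 175 in RIPK3 medium. Of this list Bst2 was called lower in cDC2s with RIPK3 medium (log2 -0.55, adjusted p = 0.0241). Siglech, Ccr9, Cox6a2 and Tcf4 were not called there, and these genes were named after their values were seen. In cDC1s that list, with 3 genes above 1 CPM, summed to 60.7 to 66.1, 54.5 to 57.2 and 55.4 to 60.8 CPM. The macrophage and monocyte list (7 genes, 3 of them above 1 CPM in each cDC2 group) summed to 46.4 to 59.3 CPM in cDC2s in WT medium, 56.2 to 71.2 in BimS medium and 68.4 to 86.7 in RIPK3 medium, whereas in cDC1s it went from 123 to 181 through 85.7 to 128 to 121 to 194 CPM. Its members did not move one way in cDC2s with RIPK3 medium, where Cd14 was higher than in WT medium (log2 0.87, adjusted p = 2.27e-04) and Fcgr1 lower (-0.65, adjusted p = 0.0128), named, like the cDC1 and cDC2 markers above, after their values were seen. The tumor list (10 genes, none at 0 throughout the cDC1s except Ccn1 in RIPK3 medium) summed to 9.36 to 10.9 CPM in cDC1s in WT medium, 10.9 to 12.1 in BimS medium and 11.5 to 12.7 in RIPK3 medium, and stayed between 2.49 and 6.91 CPM in cDC2s. B-cell and T- or NK-cell markers summed to at most 1.22 CPM in any sample. The part of these cells in the results was not tested.

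In WT medium Samhd1 was the most abundant of the 9 transcripts in both cell types, and the types otherwise ranked the sensors differently. Per kilobase of canonical transcript, Samhd1 reached 148 ± 9.58 CPM (SD, n = 3) in cDC1s and 199 ± 4.79 in cDC2s. In cDC1s it was followed by Aim2 (53.8 CPM per kilobase), Sting1 (29.4), Dhx58 (19.0), Zbp1 (8.26), Ifih1 (7.71), Mavs (4.87), Cgas (3.49) and Rigi (2.27). In cDC2s the order was Sting1 (48.7), Aim2 (28.2), Rigi (20.9), Dhx58 (17.0), Zbp1 (10.7), Ifih1 (10.1), Mavs (4.97) and Cgas (3.71). Zbp1 and Ifih1 were the only neighbors whose samples overlapped, in both types. With the length of all annotated exons in place of the canonical transcript, Samhd1 stayed first and Rigi stayed last in cDC1s, while Aim2 moved from rank 2 to rank 3 in cDC1s and from rank 3 to rank 5 in cDC2s.

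**Figure D1:**
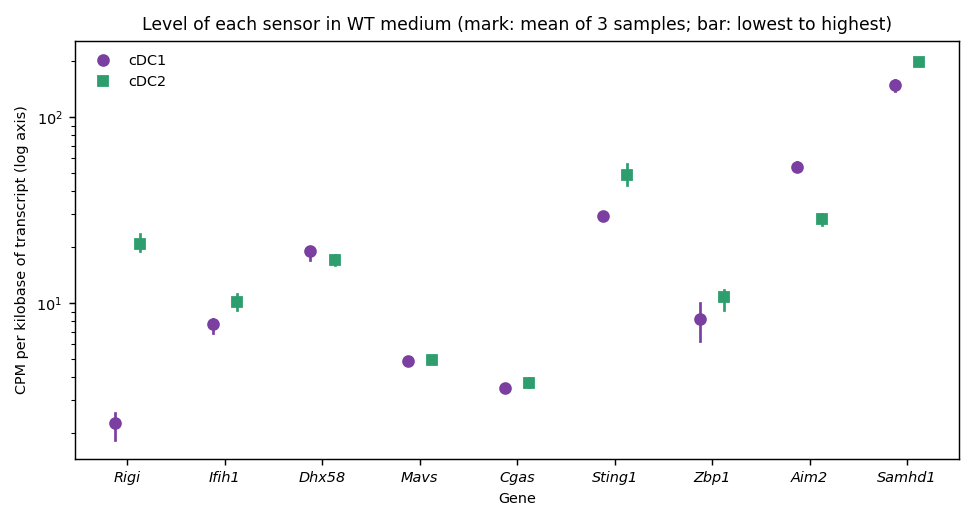
Level of the 9 measured sensors in cDC1s (circles) and cDC2s (squares) in WT medium, in CPM per kilobase of canonical transcript on a log axis, with the mean of 3 samples and a bar from the lowest to the highest. Rigi shows the widest gap, 2.27 in cDC1s against 20.9 in cDC2s, and Aim2 is the member that lies clearly higher in cDC1s.

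The widest difference between the cell types was in Rigi. In WT medium Rigi measured 9.96, 7.17 and 9.30 CPM in cDC1s and 91.5, 77.6 and 74.0 CPM in cDC2s, 9.18-fold lower in cDC1s (log2 fold change -3.20, SE 0.19, adjusted p = 1.3e-09, edgeR quasi-likelihood test). Every cDC1 sample, in any medium, lay below every cDC2 sample. Sting1 was 1.66-fold lower in cDC1s (adjusted p = 9.25e-09), Samhd1 1.34-fold lower (adjusted p = 2.98e-06) and Ifih1 1.31-fold lower (adjusted p = 0.0198). The Ifih1 call was lost without cDC1 WT replicate 2 (adjusted p = 0.09), without cDC2 WT replicate 1 (adjusted p = 0.107) and with limma on log2(count + 1) (adjusted p = 0.162). Aim2 went the other way and was 1.91-fold higher in cDC1s (adjusted p = 3.58e-12). Thus 5 of 9 sensors differed between the cell types, against 46.2% of all genes tested, a share near that background. For Dhx58, Mavs, Cgas and Zbp1 the differences did not pass the threshold, with 95% intervals of the log2 difference of -0.07 to 0.39, -0.20 to 0.14, -0.29 to 0.11 and -0.86 to 0.11. With limma on log2(count + 1) Dhx58 was called higher in cDC1s (log2 0.32, adjusted p = 0.0404). With replicate number as a block Zbp1 was called lower (log2 -0.39, adjusted p = 5.44e-04) and Dhx58 higher (log2 0.16, adjusted p = 0.049) in cDC1s. The numbers were not taken to pair the cell types, as described at the end.

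Between 4 and 7 of the 9 sensors were called lower in each comparison of medium of dying cells with WT medium, and none was called higher. In cDC1s, 5 of 9 were lower in BimS than in WT medium (5.89% of genes tested were called lower and 13.2% in either direction), and 4 of 9 were lower in RIPK3 than in WT medium (8.19% lower, 16.5% either way). In cDC2s, 7 of 9 were lower in BimS medium (3.21% lower, 7.01% either way) and 6 of 9 in RIPK3 medium (3.28% lower, 7.21% either way). With replicate number as a block the BimS counts became 7 lower and 1 higher, Samhd1, in both cell types, while all genes called went from 2576 to 3486 in cDC1s and from 1349 to 4103 in cDC2s. The median log2 fold change over the 9 genes was -0.26 and -0.51 in cDC1s and -0.52 and -0.83 in cDC2s, for BimS and RIPK3 medium, while that of all genes tested lay between -0.02 and 0.00. Rigi, Ifih1, Cgas and Sting1 were called lower in all 4 comparisons with WT medium. Both comparisons within a cell type share the WT samples. In bulk RNA, fewer cells of a kind and less RNA per cell cannot be told apart.

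**Figure D2:**
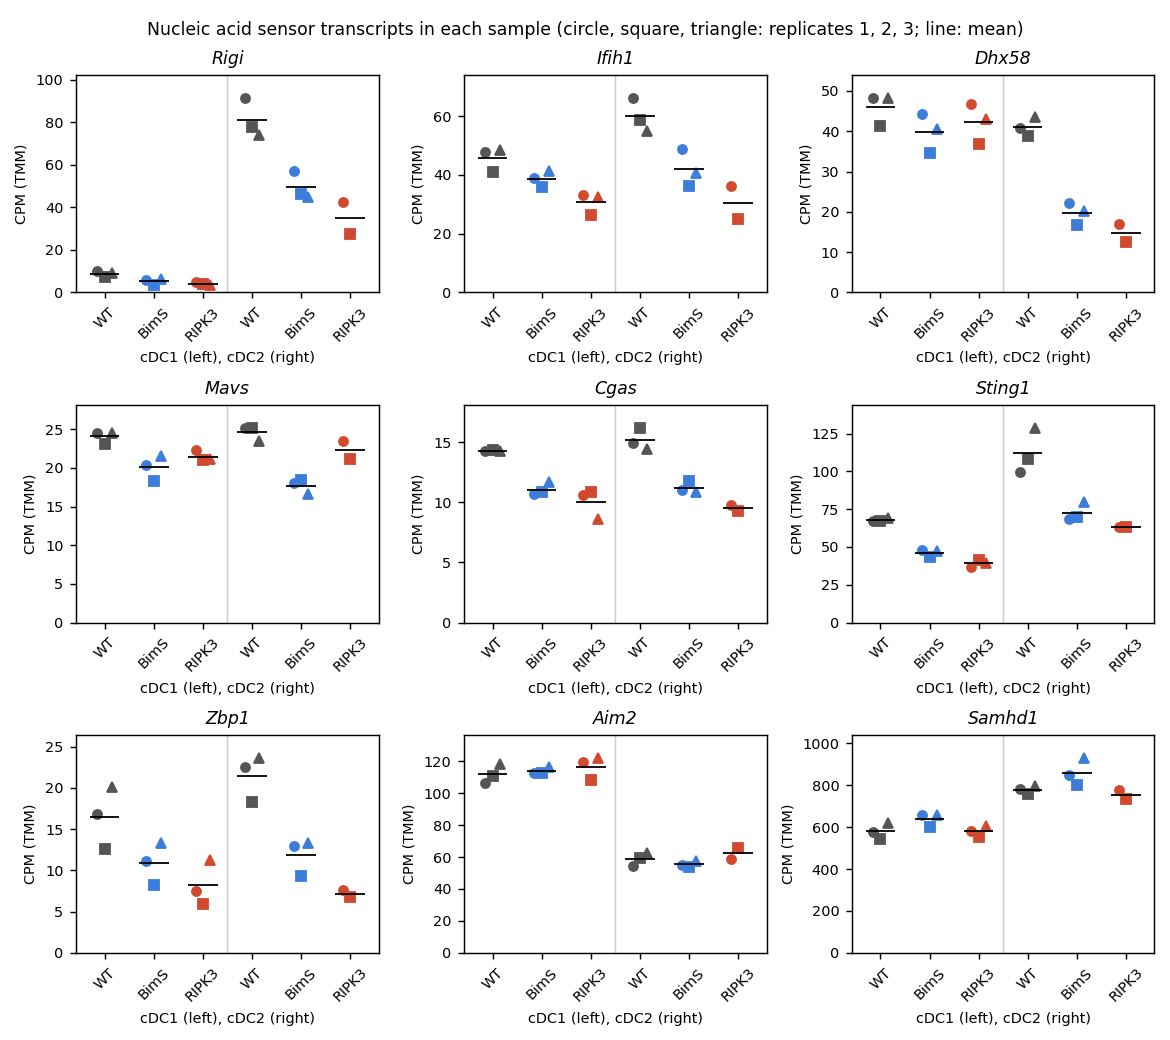
CPM (TMM-scaled) of the 9 measured sensors in each of the 17 samples, cDC1s on the left and cDC2s on the right of each panel, with marks for the replicate number and a line at the group mean. The group means of Rigi, Ifih1, Cgas, Sting1 and Zbp1 step down from WT to BimS to RIPK3 medium in both cell types, that of Dhx58 does so in cDC2s, where it goes from 41.1 to 14.7 CPM, and Aim2 and Samhd1 show no such steps.

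Among the RNA sensors, Rigi fell in both cell types. In cDC1s, where WT samples held 141 to 207 reads of Rigi, it went to 5.86, 3.69 and 6.19 CPM in BimS medium and to 4.70, 3.87 and 3.45 CPM in RIPK3 medium. No sample in either medium of dying cells reached the lowest WT sample. The log2 fold change was -0.76 (SE 0.16, adjusted p = 0.00164) with BimS and -1.13 (SE 0.17, adjusted p = 1.68e-05) with RIPK3 medium. The BimS call was lost in cDC1s with all 17 samples in 1 fit (log2 -0.76, adjusted p = 0.056). In cDC2s Rigi went to 57.2, 46.3 and 44.8 CPM in BimS medium and to 42.4 and 27.7 CPM in RIPK3 medium, again with no overlap with WT. These were log2 fold changes of -0.72 (SE 0.15, adjusted p = 0.0107) and -1.22 (SE 0.17, adjusted p = 6.94e-04), that is, 1.64-fold and 2.34-fold lower. The BimS call was lost in cDC2s without BimS replicate 2 (adjusted p = 0.0636). The relative falls were not shown to differ between the cell types, with 95% intervals of the difference in log2 fold change of -0.64 to 0.56 for BimS and -0.59 to 0.76 for RIPK3 medium.

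Ifih1, the sensor of long double-stranded RNA, fell by less in cDC1s than Rigi did. It measured 47.9, 41.2 and 48.6 CPM in cDC1s in WT medium, 38.9, 35.8 and 41.3 CPM in BimS medium and 33.3, 26.3 and 32.4 CPM in RIPK3 medium. The BimS and WT samples overlapped narrowly, while all 3 RIPK3 samples lay below both other groups. The log2 fold change against WT was -0.25 (SE 0.08, adjusted p = 0.0423) with BimS and -0.58 (SE 0.08, adjusted p = 7.04e-06) with RIPK3 medium. The BimS call in cDC1s was lost when any 1 of WT replicates 1 and 3 or BimS replicates 1 and 2 was left out (adjusted p = 0.0868 to 0.185), with log2 fold changes of -0.25 to -0.20. It was also lost with all 17 samples in 1 fit (adjusted p = 0.326), with limma on log2(count + 1) (adjusted p = 0.121) and with limma on log2 CPM (adjusted p = 0.0703). In cDC2s Ifih1 measured 66.2, 58.7 and 55.0 CPM in WT, 49.0, 36.3 and 40.6 CPM in BimS and 36.1 and 24.8 CPM in RIPK3 medium. It was 1.43-fold lower with BimS (adjusted p = 0.0299) and 1.98-fold lower with RIPK3 medium (adjusted p = 8.10e-04). The BimS call in cDC2s was lost without WT replicate 1 or 2 or BimS replicate 2 or 3 (adjusted p = 0.0838 to 0.156).

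Dhx58, which encodes the regulator LGP2, fell in cDC2s. In cDC1s it measured 48.2, 41.3 and 48.3 CPM in WT, 44.2, 34.5 and 40.5 CPM in BimS and 46.8, 36.9 and 43.0 CPM in RIPK3 medium. All 3 groups overlapped, and the log2 fold changes were -0.21 (95% interval -0.43 to 0.00, adjusted p = 0.232) and -0.12 (-0.34 to 0.09, adjusted p = 0.52). The BimS difference in cDC1s was called under 3 of 17 alternatives, with replicate number as a block (log2 fold change -0.21, adjusted p = 0.00323), with no filter (-0.21, adjusted p = 0.017) and without BimS replicate 1 (-0.30, adjusted p = 0.0477), and over all of them its adjusted p ranged up to 0.484. In cDC2s Dhx58 began at a similar 40.8, 38.9 and 43.6 CPM in WT medium and went to 22.1, 16.8 and 20.2 CPM in BimS and 16.9 and 12.5 CPM in RIPK3 medium. The WT samples stood well above all others, and the falls were 2.10-fold (log2 -1.07, SE 0.12, adjusted p = 4.31e-06) and 2.82-fold (log2 -1.50, SE 0.14, adjusted p = 4.18e-07). Its antisense neighbor Dhx58os, which shares 141 exon bases with it, had at most 1 read in any sample.

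Mavs, the adaptor of both RNA sensors, was called lower than in WT medium with BimS medium and not with RIPK3 medium. Compared directly, RIPK3 and BimS medium were not called different (adjusted p = 0.647 in cDC1s and 0.36 in cDC2s). With replicate number as a block that comparison was called in cDC2s (adjusted p = 0.0265). In cDC2s it measured 25.1, 25.1 and 23.5 CPM in WT, 16.6 to 18.4 CPM in BimS and 23.4 and 21.1 CPM in RIPK3 medium. The BimS samples were the lowest, and the RIPK3 samples lay just under the WT samples. The log2 fold change was -0.48 (SE 0.10, adjusted p = 0.00459) with BimS and -0.15 (95% interval -0.39 to 0.08, adjusted p = 0.53) with RIPK3 medium. In cDC1s the order was the same, with 23.1 to 24.6 CPM in WT, 18.3 to 21.5 in BimS and 21.0 to 22.3 in RIPK3 medium. The BimS difference there was -0.26 (SE 0.08, adjusted p = 0.0198), and it was not called without WT replicate 1 or 3 or BimS replicate 2 (adjusted p = 0.0833 to 0.159) or with limma on log2(count + 1) (adjusted p = 0.13). RIPK3 medium gave -0.17 in cDC1s (95% interval -0.33 to -0.01, adjusted p = 0.17), with samples that did not overlap those in WT medium.

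On the DNA side, Sting1 had the narrowest errors among the sensors called lower. In cDC1s it measured 66.9, 67.3 and 68.9 CPM in WT, 47.8, 43.1 and 47.2 CPM in BimS and 36.5, 41.2 and 39.6 CPM in RIPK3 medium, so that the 3 groups formed 3 separate steps. The log2 fold change against WT was -0.56 (SE 0.06, adjusted p = 6.87e-09) with BimS and -0.79 (SE 0.06, adjusted p = 1.71e-12) with RIPK3 medium. In cDC2s the steps were 99.5, 108 and 129 CPM, then 68.2, 69.5 and 79.7 CPM, then 63.2 and 63.3 CPM. Here the log2 fold changes were -0.63 (SE 0.10, adjusted p = 1.93e-04) and -0.83 (SE 0.11, adjusted p = 3.19e-05), or 1.55-fold and 1.78-fold lower.

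Cgas, the enzyme upstream of Sting1, fell alongside it by a smaller amount. In cDC1s it measured 14.3, 14.3 and 14.2 CPM in WT, 10.7, 10.8 and 11.6 CPM in BimS and 10.6, 10.9 and 8.63 CPM in RIPK3 medium, with WT clear of the rest. In cDC2s it measured 14.9, 16.2 and 14.5 CPM in WT, 11.0, 11.7 and 10.9 CPM in BimS and 9.76 and 9.26 CPM in RIPK3 medium. The falls were 1.29-fold (adjusted p = 0.00836) and 1.42-fold (adjusted p = 2.77e-04) in cDC1s and 1.36-fold (adjusted p = 0.0212) and 1.61-fold (adjusted p = 0.0019) in cDC2s, for BimS and RIPK3 medium. The cDC2 call with BimS medium was lost without BimS replicate 1 or 3 or WT replicate 2 (adjusted p = 0.0781 to 0.126), and that with RIPK3 medium without RIPK3 replicate 2 (adjusted p = 0.0558). With limma on log2(count + 1) the BimS calls were lost in both cell types (adjusted p = 0.0503 in cDC1s and 0.0526 in cDC2s). A 34.4% share of the Cgas exon bases is also covered by an antisense long noncoding RNA, Gm68924, and the strand setting of the counting is not given in the sources used here.

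Zbp1 showed the largest fall of the 9 genes, in cDC2s in RIPK3 medium. It measured 22.6, 18.2 and 23.6 CPM in WT, 12.9, 9.25 and 13.4 CPM in BimS and 7.57 and 6.74 CPM in RIPK3 medium, with no overlap between any of these groups. It was 1.82-fold lower with BimS (log2 -0.87, SE 0.14, adjusted p = 2.96e-04) and 3.03-fold lower with RIPK3 medium (log2 -1.60, SE 0.17, adjusted p = 2.08e-06). In cDC1s it measured 16.8, 12.6 and 20.1 CPM in WT, 11.1, 8.18 and 13.3 CPM in BimS and 7.43, 5.97 and 11.3 CPM in RIPK3 medium. The spread within each cDC1 group was wide, with replicate 3 highest and replicate 2 lowest in all 3 media, and each RIPK3 sample lay below the WT sample of its own number. The log2 fold changes of -0.61 (95% interval -1.31 to 0.08, adjusted p = 0.283) and -1.02 (-1.75 to -0.29, adjusted p = 0.0725) did not pass the threshold. With replicate number as a block they were -0.60 (adjusted p = 2.49e-08) and -1.01 (adjusted p = 2.21e-17), and the BimS difference was also called with limma on log2(count + 1) (adjusted p = 2.48e-04). The RIPK3 difference was called under 6 of 17 alternatives, the others being DESeq2 (adjusted p = 0.00808), all 17 samples in 1 fit (0.013), edgeR's own expression filter (0.0303), limma on log2(count + 1) (1.01e-13) and the fit without RIPK3 replicate 3 (0.0388). Over all alternatives the adjusted p reached 0.565 with BimS and 0.203 with RIPK3 medium, and every value was negative.

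Aim2 and Samhd1 stood apart, with no call in any comparison of media in the reported fits. With replicate number as a block Aim2 and Samhd1 were both called between RIPK3 and BimS medium in cDC2s (adjusted p = 0.0245 and 0.00536). The same comparison with the block called Samhd1 in cDC1s (adjusted p = 0.00726). Aim2 stayed at 106 to 118 CPM in WT, 113 to 116 in BimS and 108 to 122 in RIPK3 medium in cDC1s, and between 53.9 and 66.0 CPM in every cDC2 sample. The 95% intervals of its log2 fold change against WT reached from -0.08 to 0.14 and from -0.05 to 0.17 in cDC1s and from -0.27 to 0.10 and from -0.13 to 0.28 in cDC2s. Samhd1 measured 545 to 620 CPM in WT, 599 to 658 in BimS and 554 to 607 in RIPK3 medium in cDC1s, and 761 to 798, 801 to 929 and 733 to 779 CPM in cDC2s. Its BimS mean was above the WT mean by a log2 difference of 0.14 in both cell types (adjusted p = 0.0712 in cDC1s and 0.363 in cDC2s), with samples that overlapped in cDC1s and did not in cDC2s. With replicate number as a block these small rises were called in both (adjusted p = 0.00301 and 0.00314), and that in cDC1s also with no filter (adjusted p = 0.0464) and without BimS replicate 2, RIPK3 replicate 3 or WT replicate 3 (adjusted p = 0.0203 to 0.0274). Over all alternatives the adjusted p reached 0.707 in cDC1s and 0.869 in cDC2s.

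**Figure D3:**
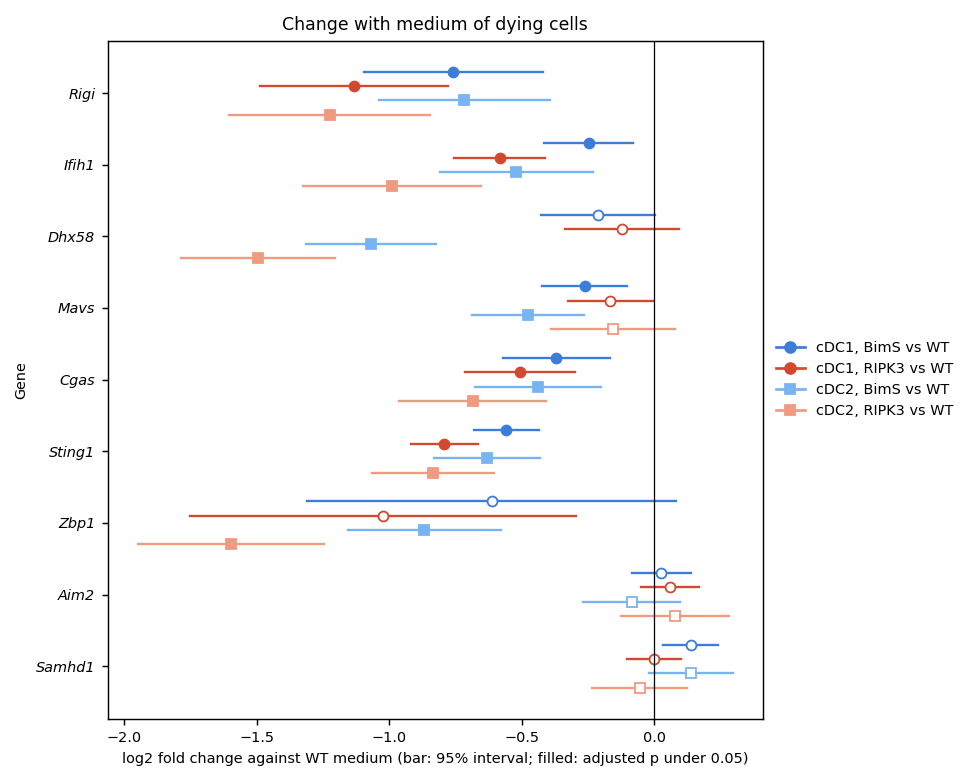
Log2 fold change of each sensor against WT medium with its 95% interval, for BimS and RIPK3 medium in cDC1s (circles) and cDC2s (squares), filled where the adjusted p is under 0.05. The points of Rigi, Cgas and Sting1 lie left of 0 in both cell types, those of Dhx58 spread from -0.12 in cDC1s to -1.50 in cDC2s, and those of Aim2 and Samhd1 lie between -0.09 and 0.14.

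Whether the responses differed between cDC1s and cDC2s was tested directly, as the cDC1 log2 fold change minus the cDC2 log2 fold change. Of the 9 sensors, 1 differed with BimS medium (0.87% of genes tested) and 1 with RIPK3 medium (1.14%), and both times it was Dhx58. The difference was 0.86 (SE 0.16, adjusted p = 0.00671) for BimS and 1.37 (SE 0.18, adjusted p = 9.25e-05) for RIPK3 medium. Ifih1 had the next lowest p with RIPK3 medium, with a difference of 0.40 (95% interval -0.03 to 0.82, adjusted p = 0.63). For Sting1 the difference was 0.07 (-0.16 to 0.31) with BimS and 0.03 (-0.22 to 0.29) with RIPK3 medium, and for Cgas it was 0.07 (-0.22 to 0.36) and 0.17 (-0.15 to 0.49). For Mavs it was 0.21 (-0.03 to 0.46) and -0.02 (-0.28 to 0.24), for Aim2 0.11 (-0.09 to 0.31) and -0.03 (-0.24 to 0.19), and for Samhd1 0.00 (-0.19 to 0.19) and 0.05 (-0.16 to 0.25). The intervals of Zbp1 were wide, from -0.46 to 0.98 and from -0.26 to 1.40, so that its responses cannot be called alike. Between the responses to RIPK3 and to BimS medium no sensor differed between the cell types (0.0314% of genes tested did), Dhx58 having the one unadjusted p under 0.05 in this edgeR test (difference 0.51, adjusted p = 0.855).

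**Figure D4:**
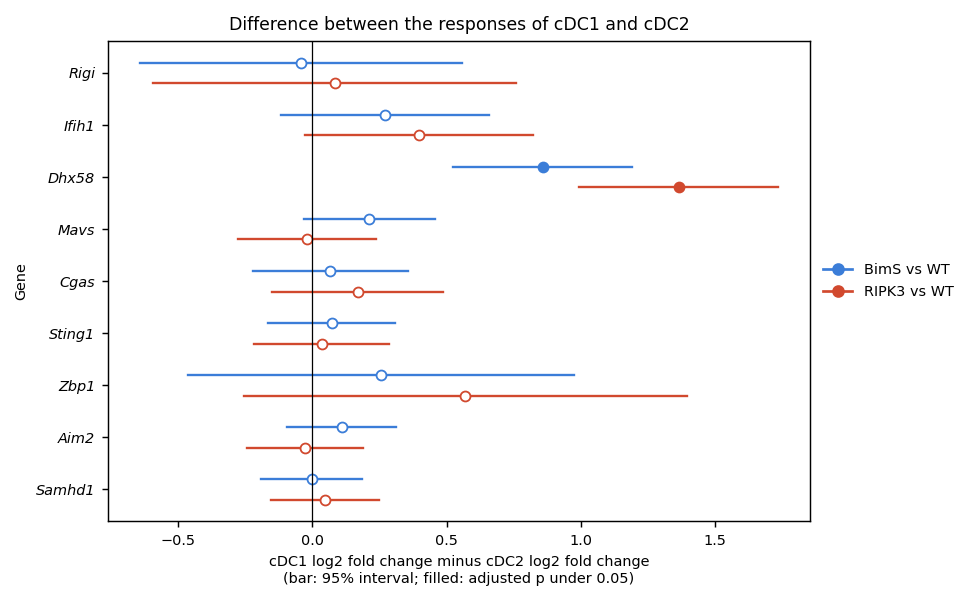
Difference between the cDC1 and the cDC2 log2 fold change of each sensor against WT medium, with its 95% interval, for BimS and RIPK3 medium, filled where the adjusted p is under 0.05. Dhx58 is the one filled gene, at 0.86 and 1.37.

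Apoptotic and necroptotic medium were then compared with each other. In cDC1s, 2 of 9 sensors were lower in RIPK3 than in BimS medium, against 2.21% of genes tested called lower and 4.15% in either direction. They were Ifih1 (log2 -0.34, SE 0.08, adjusted p = 0.0199) and Sting1 (log2 -0.23, SE 0.06, adjusted p = 0.026). The others were not called, at log2 differences of -0.37 for Rigi, -0.41 for Zbp1, -0.14 for Cgas and for Samhd1, 0.09 for Dhx58, 0.10 for Mavs and 0.03 for Aim2. Both calls were lost without BimS replicate 1 or BimS replicate 3, that of Ifih1 also without RIPK3 replicate 2 and that of Sting1 without RIPK3 replicate 1 (adjusted p = 0.0576 to 0.135). With all 17 samples in 1 fit neither was called (adjusted p = 0.318 for Ifih1 and 0.224 for Sting1), and with limma on log2(count + 1) that of Sting1 was lost (adjusted p = 0.115). Calls were also gained, that of Rigi without BimS replicate 2 (log2 -0.58, adjusted p = 0.046) and that of Samhd1 without RIPK3 replicate 3 (adjusted p = 0.0226). Limma on log2(count + 1) called Zbp1 (adjusted p = 0.0275). With the block 4 of 9 were lower, Zbp1 (log2 -0.41, adjusted p = 0.00315) and Samhd1 (log2 -0.14, adjusted p = 0.00726) being added, while 1730 of 19513 genes were called in place of 810.

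In cDC2s none of the 9 passed the threshold between RIPK3 and BimS medium (0.379% of genes tested did), while 6 had an unadjusted p under 0.05 in the edgeR test. Of these, 5 were lower with RIPK3 medium, led by Zbp1 (log2 -0.73, SE 0.17, adjusted p = 0.0724) and followed by Rigi (-0.51), Ifih1 (-0.47), Dhx58 (-0.43) and Samhd1 (-0.19). Mavs was the one with a positive difference (0.32, 95% interval 0.09 to 0.56, adjusted p = 0.36). The differences of Cgas (-0.25, 95% interval -0.53 to 0.04), Sting1 (-0.20, -0.43 to 0.02) and Aim2 (0.16, -0.04 to 0.37) reached 0 within their intervals. With the block 7 of 9 were called, Rigi (adjusted p = 2.3e-14), Ifih1 (adjusted p = 3.43e-10), Zbp1 (adjusted p = 2.14e-05), Dhx58 (adjusted p = 7.77e-04) and Samhd1 (adjusted p = 0.00536) lower and Mavs (adjusted p = 0.0265) and Aim2 (adjusted p = 0.0245) higher in RIPK3 medium, while 2755 genes in all were called in place of 73. DESeq2 called 1, Zbp1 (adjusted p = 0.0253). In all Zbp1 was called under 7 of 16 alternatives, among them limma on log2(count + 1) (adjusted p = 0.00478) and no filter (9.11e-04). The fits without BimS replicate 2, WT replicate 1 or WT replicate 3 called it too (adjusted p = 0.026 to 0.0442). Rigi and Ifih1 were also called with limma on log2(count + 1) (adjusted p = 0.0129 and 0.0361) and with no filter (0.00156 and 0.00752).

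The genes around the sensors did not move as one. Their counts are set against the shares called lower over all genes given above and against the shares called higher, which were 7.31% and 8.34% in cDC1s and 3.8% and 3.93% in cDC2s for BimS and RIPK3 medium. Of 15 genes of RIG-I-like receptor signalling, 5 were higher and 1 lower in cDC1s with BimS medium, 5 higher and 3 lower in cDC1s with RIPK3 medium, and 2 higher and 2 lower in cDC2s with either medium. The 5 of 15 higher in cDC1s were above the share over all genes. Tbk1, the kinase shared by the RNA and DNA pathways, rose in all 4 comparisons with WT medium, by log2 0.44 and 0.43 in cDC1s (adjusted p = 6.1e-08 and 7.33e-08) and 0.44 and 0.35 in cDC2s (adjusted p = 0.00232 and 0.0261). Rnf135, a ubiquitin ligase that activates RIG-I, rose in cDC1s (0.39 and 0.46, adjusted p = 0.00825 and 0.00107). Rnf125, a ligase that marks RIG-I for degradation, rose in cDC1s with RIPK3 medium (0.60, adjusted p = 0.0263). Tbkbp1, a TBK1-binding adaptor, fell in cDC1s (-0.64 and -0.54) and in cDC2s with BimS medium (-0.57). Irf7, the interferon-inducible factor at the end of the pathway, fell in cDC1s with RIPK3 medium (-0.84, adjusted p = 0.0457) and in cDC2s with both (-0.75 and -1.17, adjusted p = 0.017 and 0.00263).

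Of the regulators of cGAS and STING, none of the 13 tested in cDC1s or the 14 tested in cDC2s was higher with either medium, and those lower were Trim56 in cDC1s with BimS medium (log2 -0.15, adjusted p = 0.0293) and Trim32 (-0.44, adjusted p = 0.0275) and Prkdc (-0.25, adjusted p = 0.0265) in cDC1s with RIPK3 medium. Trim56 and Trim32 encode ubiquitin ligases that act on STING, and Prkdc encodes the catalytic subunit of DNA-dependent protein kinase. These 1 and 2 of 13 genes in cDC1s and 0 of 14 in cDC2s were near or below the 13.2%, 16.5%, 7.01% and 7.21% called in either direction over all genes.

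Relatives of Aim2 fell in cDC1s with RIPK3 medium and in cDC2s with both media, whereas Aim2 itself was not called. Of 14 tested genes of the AIM2-like receptor and inflammasome list, 1 was lower and 2 were higher in cDC1s with BimS medium, 7 were lower in cDC1s with RIPK3 medium, and 8 and 10 were lower in cDC2s with BimS and RIPK3 medium, where the median log2 fold changes were -0.57 and -0.91. The 1 lower gene in cDC1s with BimS medium was the inflammasome adaptor Pycard (-0.58, adjusted p = 0.0336), and the 2 higher were Ifi207 (0.30, adjusted p = 4.78e-05) and the protease gene Casp1 (0.33, adjusted p = 0.00189), all 3 named after their values were seen. In cDC2s with RIPK3 medium Ifi206 fell most (-2.43, SE 0.22, adjusted p = 3.99e-07), ahead of Ifi213 (-2.11), Ifi208 (-1.65), Ifi211 (-1.37) and Ifi203 (-1.37). Ifi206, Ifi211, Ifi213 and Ifi203 were also lower in cDC1s with RIPK3 medium (-1.70, -0.88, -1.01 and -0.86). These genes form a cluster of near-copies, so the split of reads between them is uncertain. The ISRE letters were in the windows of 10 of the 14 (71.4%), and Aim2 had none.

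The other genes listed with the RNA sensors, and the nucleases, were mixed. Eif2ak2, which encodes the double-stranded RNA kinase PKR, fell in all 4 comparisons with WT medium, by -0.75 and -1.11 in cDC1s (adjusted p = 2.79e-10 and 7.41e-14) and -0.75 and -1.27 in cDC2s (adjusted p = 4.8e-05 and 4.18e-07). Ddx60, a helicase linked to RIG-I signalling, fell in cDC2s with RIPK3 medium (-1.42, adjusted p = 0.00616). The lectin gene Lgals9 fell in cDC1s with both media (-0.41 and -0.51) and Zcchc3, a co-sensor of RNA and DNA, in cDC1s with BimS medium (-0.60). Nlrp1b, which can trigger an inflammasome, rose in cDC1s (0.51 and 0.29, adjusted p = 9.35e-06 and 0.00934). Of the 12 genes in this list, 3 rose and 4 fell in cDC1s with BimS medium, 3 and 3 with RIPK3 medium, and in cDC2s 1 and 1 and then 1 and 3. Over all genes 13.2% and 16.5% were called in cDC1s and 7.01% and 7.21% in cDC2s.

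Of 14 nucleases and RNA-editing genes, 2 rose and 4 fell in cDC1s with BimS medium, 1 and 5 with RIPK3 medium, and in cDC2s 1 and 0 and then 1 and 2. The 1 call in cDC2s with BimS medium was near the 7.01% called over all genes. Adar, which edits double-stranded RNA and so hides it from MDA5, fell in cDC1s (-0.18 and -0.33) and in cDC2s with RIPK3 medium (-0.50, adjusted p = 9.08e-04). Rnaseh2b, a subunit of the enzyme that removes RNA from DNA hybrids, fell in cDC1s with RIPK3 medium (-0.74, adjusted p = 4.52e-04), Rnaset2a in cDC1s with both (-0.64 and -0.60), and Pnpt1, a mitochondrial RNA exonuclease, in cDC2s with RIPK3 medium (-0.50, adjusted p = 0.00627).

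Partners of ZBP1 went in opposite directions with RIPK3 medium. Ripk3, the necroptosis kinase that ZBP1 recruits, was higher in cDC1s (log2 0.28, adjusted p = 0.0146) and cDC2s (0.57, adjusted p = 0.0452), and Fadd, an adaptor of caspase-8, was lower in both (-0.29, adjusted p = 0.0243, and -0.59, adjusted p = 0.0305). The remaining 3 of the 5 partners were not called, and with BimS medium none of the 5 was. Ripk3 differences with BimS medium were also positive, at log2 0.15 in cDC1s (adjusted p = 0.268) and 0.44 in cDC2s (adjusted p = 0.1). The clone behind RIPK3 medium carries a RIPK3 construct, and the origin of the Ripk3 reads was not tested.

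Interferon-stimulated reference genes, a list without any of the 9 sensors, were measured beside them. Of 19 tested, none was higher in any comparison of media, and 6 and 16 were lower in cDC1s and 16 and 17 in cDC2s, for BimS and RIPK3 medium. Their median log2 fold changes were -0.44 and -1.22 in cDC1s and -0.79 and -1.73 in cDC2s, so that the sensors' medians were smaller in each. Ifit1, an interferon-induced RNA-binding protein, fell by 1.34 on the log2 scale in cDC1s with RIPK3 medium (adjusted p = 1.52e-04) and by 2.66 in cDC2s (adjusted p = 1.09e-08). In cDC2s with RIPK3 medium its relatives Ifit3 (-2.66) and Ifit2 (-2.36) and the interferon-induced genes Ifi44 (-2.58) and Slfn5 (-2.51) were lower too (adjusted p = 2.08e-09 to 1.12e-05). Cxcl10, an interferon-induced chemokine, was lower in cDC1s with RIPK3 medium (-0.69, adjusted p = 2.08e-04) and in cDC2s with both (-0.53 and -1.29, adjusted p = 0.0114 and 1.08e-05), and it was the one gene called among the interferon genes and outputs, of which 4 of 10 could be tested in cDC1s and 2 in cDC2s. These lists were drawn up with earlier results of these data known.

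**Figure D5:**
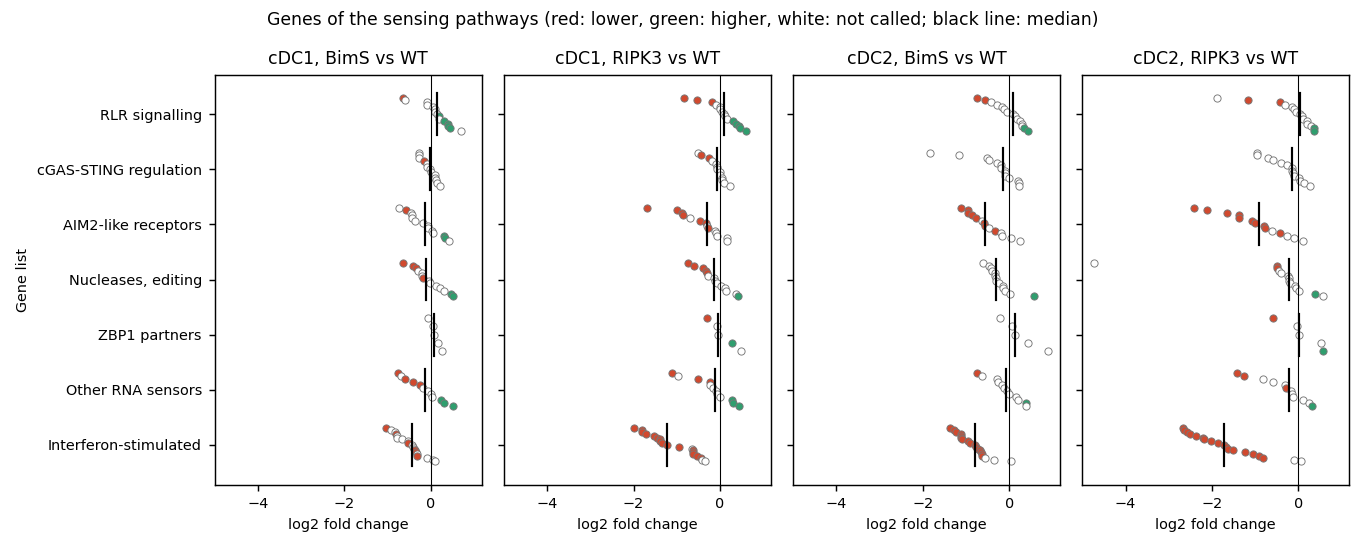
Log2 fold change against WT medium of each tested gene in 7 lists, for the 4 comparisons with WT medium, red where lower, green where higher, white where not called, with a black line at the list median. The interferon-stimulated and AIM2-like lists lie furthest left in cDC2s with RIPK3 medium, at medians of -1.73 and -0.91, and RIG-I-like receptor (RLR) signalling is split around 0.

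The genes whose pattern was most like each sensor's were ranked by Pearson's r over the 17 samples, after centring log2 CPM within each cell type, among 7775 genes with a mean log2 CPM of at least 3. The samples of a medium share their treatment, so these values are descriptions. Rigi lay closest to Dtx3l (r = 0.964), Parp12 (0.962) and Trim30d (0.955), and Ifih1 to Adar (0.967), Parp12 and Trim30d. Zbp1 lay closest to Xaf1 (0.969), Irf7 (0.967) and Oas3 (0.963), and Dhx58 to Tap1 (0.93), Trim12c (0.925) and Apeh (0.922). Sting1 lay closest to Gpx1 (0.978), Twf2 (0.967) and Tnip3 (0.957), Cgas to Dock8 (0.97), Tnfrsf13b (0.951) and Slamf7 (0.95), and Mavs to Stk38 (0.926), Ogfrl1 (0.899) and Mppe1 (0.896). For Aim2 and Samhd1 the highest values were lower, for Aim2 0.86 with Ankzf1, 0.835 with Sgta and 0.831 with Card9, and for Samhd1 0.868 with Micu2, 0.864 with Anapc2 and 0.862 with Pum3.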

How the data were processed

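RNA was poly-A selected, and the authors trimmed reads with SeqPurge, aligned them to GRCm39 with STAR 2.7.10a (submitters' processing notes) and deposited raw read counts per gene. A normalized table was not used here. Symbols and positions came from GENCODE M39, which matched 30854 of 31091 identifiers, and 148 rows without an identifier, 0.0258% to 0.0366% of reads, were left out. Counts were tested with edgeR 4.0.16 (R 4.3.3, robust quasi-likelihood, TMM) over genes with any read in no fewer than 50% of a fit's samples (19513 in cDC1s, 19239 in cDC2s, 19082 overall). Media were compared within each cell type, and cell types and response differences over all 17 samples. The Benjamini-Hochberg threshold was 0.05. Levels are TMM-scaled CPM. A count of 0 allows up to 3 counts, 0.135 to 0.194 CPM (counting error only).

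Same-numbered samples deviated together within cell types (r over 0.1 in 9 of 9 cDC1 and 7 of 7 cDC2 pairs, medians 0.324 and 0.426), so the number pairs them there. This pairing comes from the data, since the labels give only the number. Alternatives were DESeq2 1.42.0, limma 3.58.1 (on log2(count + 1), and on log2 CPM with prior count 2), other scaling and filters, the replicate block, 1 fit of all samples and leaving out each sample. Every measured member was named in each comparison of media or cell types, and from each other list up to 5 called genes by the largest fold change, except that 1 listed gene is not reported here. Members and lists were chosen with earlier results of these data known. The scripts were tested on simulated data.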

Additional observations from a re-analysis of the deposited data

Results flagged for a closer look

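The response of Dhx58 to medium of dying cells differed between cDC1s and cDC2s by a test of the difference itself. On the log2 scale, its cDC1 response less its cDC2 response came to 0.86 with BimS medium and to 1.37 with RIPK3 medium, each against WT medium (edgeR quasi-likelihood test, adjusted p = 0.00671 and 9.25e-05). Dhx58 went from a mean of 41.1 CPM in WT to 19.7 in BimS and 14.7 in RIPK3 medium in cDC2s, against 45.9, 39.8 and 42.3 CPM in cDC1s. Both differences were called under every alternative run.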

How the results depend on the processing

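Of 1755 alternative values of the 90 sensor results, 1678 stayed on the same side of the threshold, of which 50 changed sign with no call on either side, while 35 lost the call, 42 gained one and 0 reversed a called direction. The number of sensors called moved most between RIPK3 and BimS medium in cDC2s, from 0 to 1 with DESeq2, to 3 with limma on log2(count + 1), to 3 with no filter and to 7 with the replicate block, and from 0 to 1 with 1 sample left out. Between RIPK3 and BimS medium in cDC1s it went from 2 to 0 with all samples in 1 fit, to 4 with the replicate block and to 0 to 3 with 1 sample left out. For BimS against WT medium in cDC1s it went from 5 to 3 with all samples in 1 fit, to 3 with limma on log2(count + 1), to 8 with the replicate block and to 3 to 6 with 1 sample left out. The cause of these changes was not tested.

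Other counts of sensors called stayed within 1.5 times of the count reported, at 4 to 5 (reported 4) for RIPK3 against WT medium in cDC1s, 5 to 8 (reported 7) for BimS against WT medium in cDC2s, 5 to 6 (reported 6) for RIPK3 against WT medium in cDC2s, and 4 to 7 (reported 5) between the cell types in WT medium. Across cell types 19 of 24 same-numbered pairs had r over 0.1 (median 0.21, lowest -0.19), against 5 of 48 differently numbered pairs (median -0.101). Both cell types were sorted from cultures of CD11c+ cells, so a cDC1 and a cDC2 sample may share a culture. The labels do not say that a number marks a shared culture and not every pair was over 0.1, so the numbers were not taken to pair the cell types. If they do, the tests over all 17 samples treated paired samples as independent. The block gave 7 sensors between the cell types, adding Zbp1 (log2 -0.39, adjusted p = 5.44e-04) and Dhx58 (log2 0.16, adjusted p = 0.049), and the same single response difference. Over all genes the block raised the calls from 73 to 2755 (cDC2s, RIPK3 against BimS), 1349 to 4103 (cDC2s, BimS against WT), 1387 to 4126 (cDC2s, RIPK3 against WT), 810 to 1730 (cDC1s, RIPK3 against BimS), 166 to 443 and 217 to 449 (response differences with BimS and RIPK3 medium) and 6 to 27 (response differences between RIPK3 and BimS medium). Leaving out cDC2 RIPK3 replicate 2 took the first of these from 73 to 0, and cDC2 RIPK3 replicate 1 took it to 12. Without that replicate 2, cDC2 RIPK3 against WT gave 622 genes, the response difference with RIPK3 medium 111 in place of 217 and that between RIPK3 and BimS medium 0 in place of 6. Without cDC2 WT replicate 2, cDC2 BimS against WT gave 783 in place of 1349, without cDC1 WT replicate 1 the response difference with BimS medium gave 93 in place of 166, and without cDC1 BimS replicate 3, cDC1 RIPK3 against BimS gave 489 in place of 810, which all samples in 1 fit took to 269. Counts also rose, and without cDC2 WT replicate 3, cDC2 RIPK3 against BimS gave 214 in place of 73. The same fit gave 1819 in place of 1387 for cDC2 RIPK3 against WT. It gave 10 in place of 6 for the response difference between RIPK3 and BimS medium. With limma on log2(count + 1), cDC1 BimS against WT gave 1510 genes in place of 2576 and the response differences 67 and 109 with BimS and RIPK3 medium, and the median of all genes shifted to -0.12 in cDC1s and -0.17 in cDC2s for RIPK3 against WT medium. Leaving out 1 sample where cDC2s in RIPK3 medium have 2 assumes that the lone sample varies like the other groups.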
